A study of Mus musculus with 10 samples.

Results

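The genes described here are 36 antioxidant and glutathione genes of the mouse heart, chosen by symbol for their known function out of 78298 genes in the deposited table. Earlier results of these data were known when they were chosen. Each symbol matched 1 row by its Ensembl identifier, with the version number removed, through the GENCODE annotation of GRCm39. Bulk RNA sequencing gave their transcript levels in hearts of female mice on a C57BL/6J background, taken 72 h after a single dose of 30 mg/kg doxorubicin had been injected into the peritoneum. This anthracycline redox cycles, which generates superoxide, and heart muscle damage limits how much of it can be given. The 5 libraries of the control group were labelled wild type and the 5 of the other group were labelled as a germline knockout of p38δ, the stress-activated kinase encoded by Mapk13, a design that would remove it from every cell and not only from heart muscle. All 10 hearts had received the drug, so its own effect was not measured, and the labels give no age. The comparison asks whether transcripts of the antioxidant defence differed with p38δ genotype after doxorubicin. The labels name no animals, litters or batches, the sample titles follow different schemes in the 2 groups, and a difference of cohort cannot be told apart from genotype. All p-values measure the spread among the samples, which may be technical.

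Cells remove oxidants in steps. Superoxide dismutases turn superoxide into hydrogen peroxide, and catalase, glutathione peroxidases and peroxiredoxins then reduce the peroxide to water. Peroxiredoxins are recharged by thioredoxin, and glutathione peroxidases and transferases use glutathione, a tripeptide made by glutamate-cysteine ligase and glutathione synthetase. Both cycles draw their electrons from NADPH. Many of these genes are targets of NRF2, a transcription factor encoded by Nfe2l2 that KEAP1 marks for degradation until oxidants or electrophiles modify it. Heart muscle is rich in mitochondria, a main source of superoxide.

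Library totals ranged from 21403189 to 40627138 counts, and levels are given as CPM, counts scaled to a common library size after correction for library composition (TMM). Mapk13 held 1 to 5 counts in wild-type libraries 2 to 5, 292 in wild-type library 1 and 9 to 15 in the knockout libraries. Apart from wild-type library 1 these counts are very low, and Mapk13 was not called (adjusted p = 0.78 by edgeR). The target gene was thus higher in the knockout libraries than in wild-type libraries 2 to 5. That direction is opposite to a loss of the transcript, so the counts do not check the labels. The part of the gene removed is not given. A wild-type or knockout library is throughout a library so labelled, and each direction between the groups rests on those labels. Wild-type library 1 and knockout library 4 stood apart from the rest. Summed over 10 ventricular muscle markers, wild-type library 1 had the lowest level at 23301 CPM and knockout library 4 the highest at 66973, with the other 8 from 31524 to 52831 CPM. All 10 of those markers were detected in every library, as the heart label implies. The 10 airway and lung markers summed to 1133 CPM in wild-type library 1, to 96.6 CPM in wild-type library 3 and to at most 2.54 CPM elsewhere, and 5 of the 10 were at 0 in at least 5 libraries. The 8 atrial markers summed to 1469 CPM in wild-type library 1 and to at most 341 CPM elsewhere, and the 10 mesothelial and epicardial markers to 41.2 to 169 CPM in wild type against 20.9 to 41.7 CPM in knockout. For the 11 macrophage and monocyte markers the sum was 824 CPM in wild-type library 1, and the other 9 libraries ranged from 179.8 to 277 CPM. The 9 adipocyte markers summed to 1169 CPM in wild-type library 1 and to 369 to 808 CPM elsewhere. Fabp4 made up most of each sum, from 342 CPM in knockout library 3 to 766 CPM in knockout library 1. Cidea was also present in every library, at 22.2 to 62.6 CPM. Adipoq, Cfd and Cidec stood at 87.8, 120 and 85.1 CPM in wild-type library 1 and at no more than 3.70 CPM elsewhere. The 8 fibroblast markers summed to 1605 CPM in wild-type library 1 and to 695 to 956 CPM elsewhere. Fewer cells of a type and less RNA per cell cannot be told apart in whole-heart RNA. Results that moved most with either library are given with and without it.

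No member was called different between the groups. All 36 passed the filter on low counts, with mean levels from 3.49 CPM for Gpx7 to 1293 CPM for Txnip, and 0 of 36 had an adjusted p under 0.05 in edgeR's quasi-likelihood test, where 0.353% of the 16700 genes tested did (0.24% higher and 0.114% lower in knockout). Before adjustment, 0 of 36 had p under 0.05 by edgeR, against 6.86% of all genes tested. DESeq2 and limma voom with quality weights also called 0 of 36, where DESeq2 called 0.718% of all genes it tested. The calls of limma voom over all genes are given in the last section. The 5 wild-type values overlapped the 5 knockout values in each of the 36 genes, while the groups were separate for 1.78% of all genes tested. The smallest unadjusted p of a member was 0.119, for Gpx1, and its adjusted p was 0.75 by edgeR. In the exact permutation test on log2(CPM + 1), 2-sided, with a smallest possible p of 0.00794 for 5 against 5, no member went below 0.175.

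The size of the differences was small for most members. After TMM scaling, 16 of the 36 log2 fold changes, knockout minus wild type, were above 0 and 20 below, with a median of -0.0071, beside a median of -0.014 and 53.4% below 0 over all genes tested. Scaled by library totals alone, 5 were above 0, with a member median of -0.107 where the median of all genes was -0.116. In the edgeR fit with TMM they ran from -0.56 for Glrx to 0.34 for Srxn1, and 28 of the 36 were within 0.15 of 0. For 27 members the whole 95% interval of the fold change lay inside 1.5-fold in either direction, and for 34 it lay inside 2-fold. The 2 exceptions were Glrx (-1.44 to 0.32 on the log2 scale) and Gpx3 (-1.28 to 0.72). Wild-type library 1 held the single high value of Glrx, and without it and knockout library 4 the log2 fold change of Glrx was -0.019 with a standard error of 0.09. A p that misses the threshold does not show that levels were equal, and the intervals give what these 10 libraries allow.

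**Figure D1:**
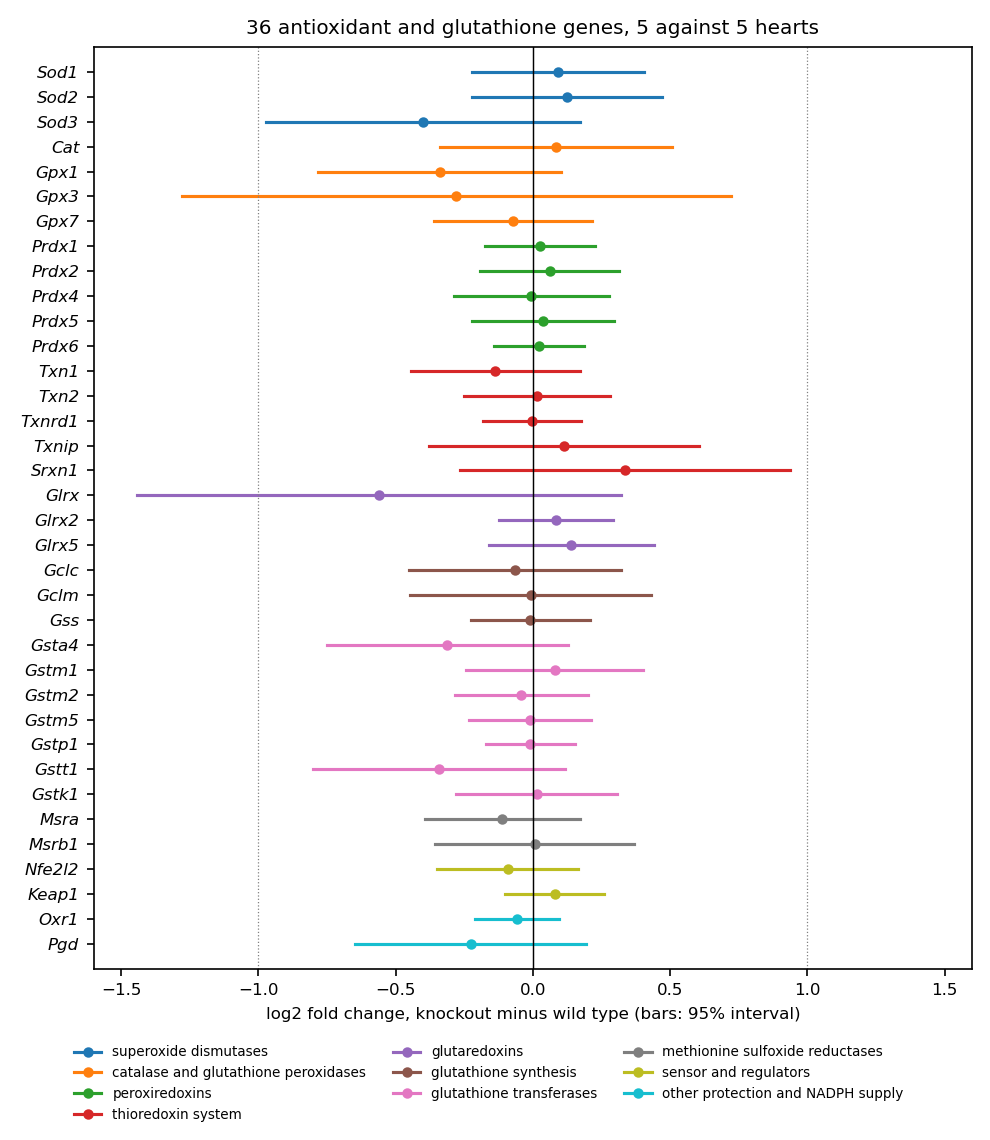
Log2 fold change, knockout minus wild type, of each of the 36 members (points) with its 95% interval (bars), coloured by role, from 5 wild-type and 5 knockout hearts. Each interval crosses 0, and only those of Glrx and Gpx3 pass the dotted lines that mark 2-fold.

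NRF2 acts with small MAF proteins at the antioxidant response element, whose core is written TGACNNNGC. This core was searched on both strands of 300-base windows, from 250 bases before to 50 after the start of each gene's canonical GENCODE transcript, in the GRCm39 genome. It was found in the windows of 8 of the 36 members, or 22.2%, and in 13.6% of the windows of 13343 tested protein-coding genes. Of the 94 other pathway genes tested, 13.8% held it. The stretches of 5 members are shown because these genes supply peroxiredoxins, their repair and reduction, and glutathione. The core is in capitals with up to 10 bases on either side, read 5′ to 3′ on the strand where it reads as above.
Prdx1: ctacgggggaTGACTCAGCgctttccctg
Prdx6: ccacttcctcTGACTTAGCccacgtcaca
Srxn1: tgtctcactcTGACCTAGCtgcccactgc
Txnrd1: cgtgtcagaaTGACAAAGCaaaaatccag
Gclm: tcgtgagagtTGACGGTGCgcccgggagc
They lie at chr4:116542653-116542681, minus strand (Prdx1), chr1:161079143-161079171, minus strand (Prdx6), chr2:151947462-151947490, minus strand (Srxn1), chr10:82694938-82694966, minus strand (Txnrd1) and chr3:122039062-122039090, minus strand (Gclm). Measured along the gene, the most upstream base of the match lay 78, 63, 65 and 54 bases before the start in Prdx1, Prdx6, Txnrd1 and Gclm, and 28 bases after it in Srxn1. The other members with a match were Sod1, Gstm5 and Msra. A match is a description of the letters and not a binding site, and the absence of a match says only that these letters are not in that window. The 8 genes with a match had log2 fold changes from -0.11 (Msra) to 0.34 (Srxn1), and none was called.

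The superoxide dismutases are the first step. Sod2 encodes the mitochondrial enzyme and lies on chromosome 17, which also carries Mapk13 (ENSMUSG00000006818, chromosome 17, 13224095 to 13259591, GRCm39). Sod2 stood at 235, 345, 361, 394 and 402 CPM in wild-type libraries 1 to 5 and at 343, 309.9, 389.7, 471 and 376 CPM in knockout libraries 1 to 5. The lowest value was in wild-type library 1 and the highest in knockout library 4, with the other 8 intermingled (log2 fold change 0.12, 95% interval -0.22 to 0.47, adjusted p = 0.887 by edgeR). Without those 2 libraries the log2 fold change of Sod2 changed sign, to -0.08. Sod1, which encodes the cytosolic copper and zinc enzyme, had 145 ± 18.3 against 155 ± 32.4 CPM (mean ± SD, n = 5 each). Sod3 encodes the secreted enzyme that is bound to the extracellular matrix. Its wild-type libraries 1 to 5 stood at 19.9, 9.10, 7.80, 7.70 and 7.82 CPM and its knockout libraries at 7.67, 8.03, 7.38, 9.60 and 7.07 CPM. Only wild-type library 1 was high, and the other 9 lay between 7.07 and 9.60 CPM. The log2 fold change of Sod3 was -0.40 with all libraries and -0.03 without wild-type library 1. The lung, atrial, mesothelial, macrophage, adipocyte and fibroblast marker sums were all highest in that library, and their part in the result was not tested.

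Per kilobase of annotated exon, the mean level was highest for Sod2 at 27.8 CPM, then Sod1 at 17.4 and Sod3 at 2.21, and the order was the same per kilobase of coding sequence (545, 325 and 12.2 CPM). Among all 36 members Txnip and Gpx3 had the highest means on both scales, with 408 and 237 CPM per kilobase of exon and 1085 and 1068 per kilobase of coding sequence. The order of these 2 differed between libraries on both scales, and in knockout library 4 Gpx3 was below Gstm1 and Prdx5 on both. The scales differ because annotated exons of genes such as Sod1 include long untranslated stretches, so only orders that held on both are given.

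Among the enzymes that remove hydrogen peroxide, Gpx1, the cytosolic and mitochondrial glutathione peroxidase, had the smallest p. Levels of Gpx1 were 59.4, 32.7, 36.9, 28.1 and 26.01 CPM in wild-type libraries 1 to 5 and 32.7, 30.7, 28.3, 24.4 and 28.99 CPM in the knockout libraries 1 to 5. The highest was again wild-type library 1, and the other 9 ran from 24.4 to 36.9 CPM. The log2 fold change of -0.34 (95% interval -0.78 to 0.10) moved to -0.09 without that library. Gpx3 encodes the secreted glutathione peroxidase of plasma and was the most variable member within the knockout group. In wild-type libraries 1 to 5, Gpx3 stood at 1209, 1013, 832, 472 and 445 CPM, and in knockout libraries 1 to 5 at 983, 839, 517, 145 and 789 CPM. Its highest knockout library exceeded its lowest 6.79-fold, and its highest wild-type library the lowest 2.72-fold. Knockout library 4 was far below the other 9, and without it the log2 fold change went from -0.28 to -0.02. Wild-type library 1 held the highest value, and with both left out the direction turned, to 0.18 (675 against 764 CPM).

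Catalase, the peroxisomal enzyme encoded by Cat, had 387 ± 65.97 against 411 ± 108 CPM (SD, n = 5 each), with its lowest value in knockout library 4 at 243 CPM and its highest in knockout library 1 at 509 CPM. Gpx7, which encodes a peroxidase of the endoplasmic reticulum, had 3.58 ± 0.405 against 3.41 ± 0.352 CPM and was the member of lowest mean CPM.

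The 5 peroxiredoxins had narrow intervals. Prdx2, a cytosolic member that is abundant in red blood cells, had the smallest p of the 5. Wild-type libraries 1 to 5 held Prdx2 at 103, 144, 143, 158 and 131 CPM, and knockout libraries 1 to 5 at 160.2, 129, 140.4, 150.2 and 129 CPM. The lowest was wild-type library 1 and the remaining values were mixed between the groups (log2 fold change 0.06, 95% interval -0.19 to 0.31, adjusted p = 0.927 by edgeR). The 8 erythroid markers summed to at most 3.998 CPM in any library. Prdx1, the main cytosolic enzyme, had 224 ± 13.9 against 228 ± 23.7 CPM (SD, n = 5 each), and Prdx6, which also acts on oxidised phospholipids, had 123 ± 7.67 against 125 ± 8.32 CPM. Prdx5 of mitochondria, peroxisomes and cytosol had 131 ± 19.4 against 135 ± 15.9 CPM, and Prdx4 of the endoplasmic reticulum 9.90 ± 1.43 against 9.86 ± 1.51 CPM. The 5 log2 fold changes ran from -0.006 to 0.06, and no interval reached beyond -0.29 or 0.31.

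In the thioredoxin system, Srxn1 encodes sulfiredoxin, which repairs over-oxidised peroxiredoxins. Srxn1 stood at 30.5, 34.6, 37.04, 25.5 and 23.8 CPM in wild-type libraries 1 to 5 and at 54.8, 49.01, 30.6, 16.7 and 40.2 CPM in knockout libraries 1 to 5. Knockout libraries 1, 2 and 5 were above all 5 wild-type libraries and knockout library 4 was below them all, so the groups overlapped (log2 fold change 0.34, 95% interval -0.27 to 0.94, adjusted p = 0.814 by edgeR). Without knockout library 4 the log2 fold change was 0.53 (adjusted p = 0.707 by edgeR). Txnip, whose product binds thioredoxin and limits glucose uptake, had 1242 ± 239 against 1343 ± 409 CPM (SD, n = 5 each). Its knockout values went from 806 CPM in library 4 to 1712 CPM in library 1, a range that contained all the wild-type values.

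The thioredoxins and their reductase varied less. Txn1, the cytosolic thioredoxin, had 31.1 ± 5.22 against 28.3 ± 4.84 CPM, Txn2, the mitochondrial one, 85.3 ± 13.5 against 86.2 ± 10.6 CPM, and Txnrd1, the cytosolic reductase, 59.1 ± 5.34 against 59.02 ± 4.65 CPM (SD, n = 5 each). Txnrd1 had a log2 fold change of -0.0029 with a 95% interval of -0.18 to 0.18.

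Glutaredoxins reduce disulfides formed with glutathione. Glrx, the cytosolic enzyme, had the lowest log2 fold change of the 36. Levels of Glrx were 42.8, 10.9, 12.1, 10.1 and 11.1 CPM in wild-type libraries 1 to 5 and 11.3, 11.3, 11.2, 15.5 and 9.94 CPM in the knockout libraries 1 to 5. Wild-type library 1 was the only high value, at 42.8 CPM against at most 15.5 CPM in the other 9. The log2 fold change was -0.56 with all 10 libraries and 0.10 without wild-type library 1, so its sign changed. The macrophage markers and the other marker sets named for Sod3 were high in the same library, and their part in the result was not tested. The mitochondrial Glrx2 had 17.7 ± 1.87 against 18.8 ± 1.86 CPM, and Glrx5, which serves iron-sulfur cluster assembly, 16.7 ± 2.87 against 18.3 ± 2.93 CPM (SD, n = 5 each).

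Glutathione synthesis starts with glutamate-cysteine ligase, whose catalytic subunit is encoded by Gclc. In wild-type libraries 1 to 5, Gclc stood at 32.3, 17.6, 18.6, 16.8 and 17.7 CPM, and in knockout libraries 1 to 5 at 19.7, 21.8, 19.2, 16.4 and 21.5 CPM. Above all others was wild-type library 1, and knockout libraries 1, 2, 3 and 5 lay above wild-type libraries 2 to 5. With all libraries the log2 fold change was -0.07 (95% interval -0.45 to 0.32), and without wild-type library 1 it was 0.16 (adjusted p = 0.875 by edgeR). The modifier subunit gene Gclm had 63.5 ± 11.2 against 63.1 ± 16.96 CPM (SD, n = 5 each), with knockout library 4 lowest at 34.2 CPM. Gss, the glutathione synthetase gene, had 13.4 ± 1.10 against 13.3 ± 1.67 CPM.

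Glutathione transferases attach glutathione to electrophiles. Gstt1, of the theta class, had the smallest p of the 7. Gstt1 stood at 9.47, 6.83, 5.10, 4.96 and 5.66 CPM in wild-type libraries 1 to 5 and at 5.04, 4.82, 4.71, 7.04 and 3.71 CPM in knockout libraries 1 to 5. The highest values were in wild-type library 1 and knockout library 4 and the groups overlapped (log2 fold change -0.34, 95% interval -0.80 to 0.12, adjusted p = 0.751 by edgeR). Gstm1, a mu-class gene and one of the more abundant members, had 285 ± 30.5 against 301 ± 59.1 CPM (SD, n = 5 each), and knockout library 4 at 198 CPM was below the other 9, which ran from 243 to 342 CPM. Gsta4, whose enzyme clears the lipid peroxidation product hydroxynonenal, had 91.9 ± 26.8 against 74.1 ± 15.4 CPM, highest in wild-type library 1 and lowest in knockout library 4. Without those 2 libraries its log2 fold change went from -0.31 to -0.03, with means of 79.7 and 77.8 CPM.

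The mu-class Gstm2 had 119 ± 10.8 against 116 ± 17.01 CPM and Gstm5 28.3 ± 3.82 against 28.05 ± 2.85 CPM, and the mitochondrial and peroxisomal Gstk1 40.7 ± 8.25 against 41.1 ± 4.47 CPM (SD, n = 5 each). Gstp1, of the pi class, had 70.4 ± 3.01 against 69.9 ± 6.33 CPM and the smallest coefficient of variation of the 36 members over the wild-type libraries, 4.27%, with 9.05% over the knockout libraries and a 95% interval of -0.17 to 0.15 on the log2 scale. Its paralog Gstp2 shares 97.9% identity with it over 707 bases and held 10.6% as many counts. Reads of such copies were divided by estimation, so both values are uncertain. Summed with Gstp2 and the pseudogene Gstp-ps, Gstp1 had a log2 fold change of -0.02. Sod1, Prdx1, Prdx2, Gstm1 and Gstm2 also had near-identical copies, each holding at most 0.534% of the member's count.

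Methionine sulfoxide reductases repair oxidised methionine in proteins. Msrb1, a selenoprotein reductase, is the second member on chromosome 17 (ENSMUSG00000075705, chromosome 17, 24955614 to 24961752, GRCm39). Levels of Msrb1 were 44.6, 60.1, 83.2, 71.2 and 52.6 CPM in wild-type libraries 1 to 5 and 79.6, 58.1, 64.8, 56.4 and 54.1 CPM in the knockout libraries 1 to 5. Its values ran widely in both groups and overlapped (log2 fold change 0.007, 95% interval -0.36 to 0.37, adjusted p = 0.994 by edgeR). Msrb1 lies 4.03 Mb and Sod2 15.7 Mb from Mapk13, and 5.44% of the 827 genes tested on chromosome 17, and 6.29% of the 556 within 20 Mb of Mapk13, were called. The closest called gene to Msrb1 was Eme2, 145 kb away, with a log2 fold change of -0.58, and 6 of 66 tested genes within 1 Mb of Msrb1 were called. For Sod2 the closest was Slc22a3, 497 kb away, and 3 of 24 were called. Neither of the 2 members was called, and most tested genes around them were not called either.

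Msra, the reductase for the other methionine sulfoxide form, lies on chromosome 14. In wild-type libraries 1 to 5, Msra stood at 17.2, 21.04, 23.1, 27.7 and 24.03 CPM, and in knockout libraries 1 to 5 at 20.6, 18.7, 22.5, 24.9 and 17.9 CPM. Its lowest value was in wild-type library 1 and its highest in wild-type library 4 (log2 fold change -0.11, 95% interval -0.39 to 0.17, adjusted p = 0.872 by edgeR).

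The regulators were near level. Keap1 encodes the sensor that holds NRF2 low. Keap1 stood at 30.2, 36.2, 39.2, 36.3 and 34.8 CPM in wild-type libraries 1 to 5 and at 38.8, 36.1, 35.9, 41.7 and 34.1 CPM in knockout libraries 1 to 5. The highest was knockout library 4 and the lowest wild-type library 1, with the rest intermingled (log2 fold change 0.08, 95% interval -0.10 to 0.26, adjusted p = 0.857 by edgeR). Nfe2l2, which encodes NRF2 itself and is regulated largely at the protein level, had 80.9 ± 8.36 against 75.9 ± 12.4 CPM (SD, n = 5 each), with a 95% interval of -0.35 to 0.17 on the log2 scale. Of the remaining members, Oxr1, an oxidation resistance gene, had 75.3 ± 3.78 against 72.3 ± 5.38 CPM. Pgd encodes phosphogluconate dehydrogenase, which makes NADPH in the pentose phosphate pathway. The wild-type values of Pgd in libraries 1 to 5 were 41.8, 22.01, 22.9, 20.3 and 20.7 CPM and the knockout values 24.1, 22.4, 19.7, 19.3 and 23.9 CPM. A single value was high, that of wild-type library 1, and without it the log2 fold change moved from -0.23 to 0.03.

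**Figure D2:**
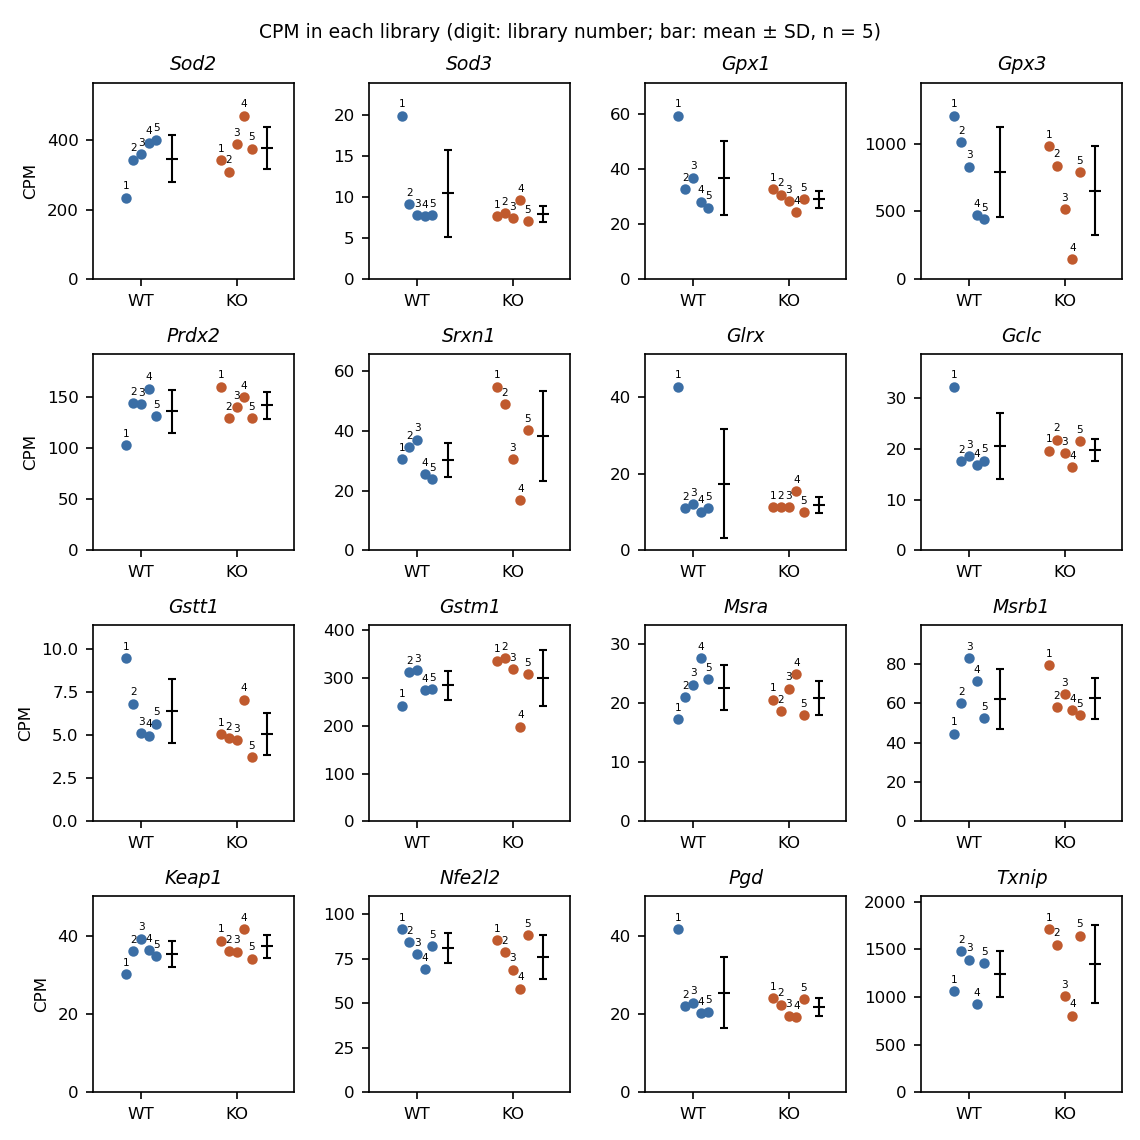
CPM (vertical axis, from 0) of 16 members in each of the 5 wild-type (WT, blue) and 5 knockout (KO, orange) libraries, numbered, with the mean and SD of each group as a black bar. The points of the groups overlap in each panel, wild-type library 1 is the high point of Sod3, Gpx1, Glrx, Gclc and Pgd, and knockout library 4 is the low point of Gpx3, Srxn1, Gstm1 and Txnip.

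The extremes of member levels gathered in a few libraries. Knockout library 4 had the lowest level of the 10 libraries in 16 of the 36 members (44.4%), among them Cat, Gpx3, Gclm, Gss, Srxn1, Txnip, Txnrd1 and Nfe2l2, where it had the lowest level in 17.8% of all genes tested. Knockout library 1 had the highest level in 11 members (30.6%), among them Sod1, Cat, Prdx1, Txnip and Srxn1, against 9.91% of all genes tested. Wild-type library 1 was the highest in 10 members (27.8%, and 27.8% of all genes) and the lowest in 12 (33.3%, against 22.5%). These shares describe members measured in the same libraries and are not independent counts. Knockout library 4 had the highest and wild-type library 1 the lowest sum of the ventricular muscle markers, and the part of those markers in the member levels was not tested.

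**Figure D3:**
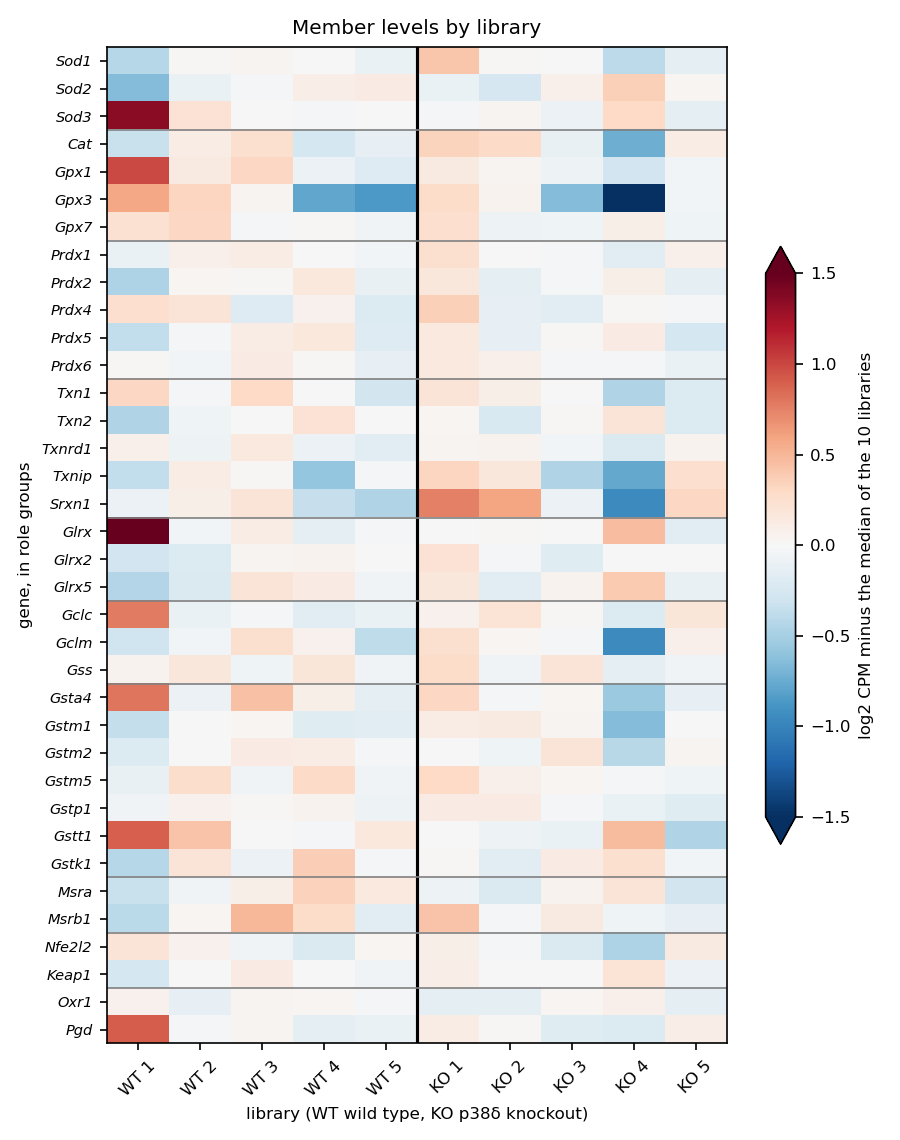
Log2 CPM of each member (rows, in role groups) in each library (columns) minus the median of the 10 libraries, from blue (lower) to red (higher), with a scale that ends at 1.5 either way. The columns of wild-type library 1 and knockout library 4 hold most of the strong colours, and no row changes colour as a block at the line between wild type and knockout.

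The count of called members stayed at 0 of 36 when any 1 library was left out and when wild-type library 1 and knockout library 4 were both left out, when 0.521% of all genes tested were called. In the 8 remaining libraries 4 of the 36 members had an unadjusted p under 0.05 by edgeR, or 11.1%, against 7.8% of the 16494 genes then tested. They were Gclc, Msra, Srxn1 and Gstt1. The libraries left out were picked from these same data and held many of the member extremes. Differences without them can therefore look stronger than they are. The sign of the log2 fold change turned in 18 of the 36 members, among them Sod2, Gpx3, Prdx2, Msrb1, Gclc and Keap1. Gclc had 17.3 ± 0.775 against 20.1 ± 1.299 CPM in the 4 libraries of each group (mean ± SD, adjusted p = 0.438 by edgeR at a log2 fold change of 0.22), and it was the 1 member whose groups did not overlap, as was the case for 4.85% of all genes in those libraries. Srxn1 had 29.6 ± 6.43 against 42.6 ± 10.2 CPM (adjusted p = 0.6 by edgeR at a log2 fold change of 0.53). Msra stood at log2 -0.26 and Gstt1 at log2 -0.31, with adjusted p of 0.489 and 0.636 by edgeR.

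Of 100 other genes of the same pathways, listed by function, 94 were tested and 1 was called, Nnt, higher in the knockout group. Over all genes tested, 0.353% were called. Nnt encodes the mitochondrial transhydrogenase that makes NADPH from NADH. In wild-type libraries 1 to 5 it stood at 30.4, 52.5, 50.4, 54.4 and 61.3 CPM, and in knockout libraries 1 to 5 at 286, 294, 319, 313 and 250.5 CPM. All 5 knockout libraries lay above the 5 wild-type ones (log2 fold change 2.55, 95% interval 2.19 to 2.92, adjusted p = 6.97e-06 by edgeR), as did the knockout values of 0.88% of all genes tested. The C57BL/6J strain is known for a deletion within Nnt that other C57BL/6 substrains lack, and whether the strain background of the groups differed was not tested. The other 11 genes of the NADPH supply list, among them the pentose phosphate and isocitrate dehydrogenase genes, were not called. Mitochondrial peroxide removal draws on this NADPH. Among genes with a part in it, Prdx3 had 202 ± 37.7 against 209 ± 12.7 CPM and Txnrd2 16.6 ± 3.13 against 16.8 ± 1.45 CPM (SD, n = 5 each). Gpx4 had 248 ± 50.3 against 269.5 ± 41.3 CPM, counted over the whole gene and so not for a mitochondrial form alone. None of the 3 was called. Gsr, the glutathione reductase gene, had 16.6 ± 1.52 against 16.96 ± 2.26 CPM. These 4 genes were picked for their role after the values were known.

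Among the 94, 7 had an unadjusted p under 0.05 by edgeR, or 7.45%, against 6.86% of all genes tested. Of the 7, 2 were higher and 5 lower in knockout, where 3.08% of all genes tested were higher and 3.77% lower. The groups were separate for Nnt and Por. Por, the electron donor of cytochrome P450 enzymes, which can also reduce doxorubicin, had wild-type values of 75.4, 37.3, 39.4, 37.7 and 39.5 CPM and knockout values of 29.5, 33.8, 33.99, 35.3 and 31.4 CPM. The 5 knockout values lay below the 5 wild-type ones, as was so for 0.898% of all genes tested, wild-type library 1 was the highest, and the gene was not called (log2 fold change -0.48, adjusted p = 0.677 by edgeR, and -0.23 with 0.464 without that library). Without wild-type library 1 and knockout library 4, Por was at -0.26 (adjusted p = 0.223 by edgeR). In those 8 libraries Nnt and Osgin1 were separate and higher in knockout, and Por, Txnrd3, Abcc1 and Me3 separate and lower. The groups were then separate for 4.85% of all genes tested. Of the 94, 11 then had an unadjusted p under 0.05 by edgeR, against 7.8% of all genes tested, and only Nnt was called. Gsta3, an alpha-class transferase, stood at 40.5, 20.4, 25.3, 25.9 and 25.5 CPM in wild type and at 19.6, 17.6, 21.2, 12.4 and 19.6 CPM in knockout, overlapping and highest in wild-type library 1 (adjusted p = 0.572 by edgeR at a log2 fold change of -0.61). Without wild-type library 1 and knockout library 4 the value for Gsta3 was -0.31, with an adjusted p of 0.293 by edgeR.

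Sesn2, a stress-induced sestrin, had the smallest p of the peroxide and superoxide list. Wild-type values of Sesn2 were 7.40, 5.27, 5.90, 3.85 and 4.40 CPM and knockout values 4.13, 3.91, 4.52, 3.21 and 4.01 CPM (adjusted p = 0.693 by edgeR at a log2 fold change of -0.45). Msrb3, a methionine sulfoxide reductase of the endoplasmic reticulum and mitochondria, stood at 81.7, 102, 104, 103 and 109.5 CPM in wild type and 113, 108, 107, 119 and 127 CPM in knockout (adjusted p = 0.714 by edgeR at a log2 fold change of 0.20). In Sesn2 and Msrb3 the groups overlapped, and both had an unadjusted p under 0.05 by edgeR with all libraries. Without wild-type library 1 and knockout library 4, Sesn2 moved to -0.24 (unadjusted p = 0.132 by edgeR) and Msrb3 to 0.12 (unadjusted p = 0.108 by edgeR). For Chac2, which degrades glutathione in the cytosol, the wild-type values were 5.78, 6.16, 6.87, 8.76 and 7.87 CPM and the knockout values 5.08, 6.16, 6.66, 5.55 and 6.62 CPM (adjusted p = 0.75 by edgeR at a log2 fold change of -0.23). Cbr3, a carbonyl reductase of a family that reduces doxorubicin to its alcohol, stood at 6.502, 1.38, 1.03, 1.299 and 1.16 CPM in wild type and 1.18, 1.44, 0.952, 1.04 and 0.928 CPM in knockout. Only wild-type library 1 was high, and without it the log2 fold change of Cbr3 went from -1.05 to -0.13. By list, 0 of 12 peroxide and superoxide genes, 0 of 8 thioredoxin and glutaredoxin partners, 0 of 14 glutathione supply genes, 0 of 16 other transferases, 1 of 12 NADPH supply genes, 0 of 22 NRF2 pathway genes and 0 of 10 oxidant sources were called. With 0.353% of all genes tested called, lists this short would seldom hold a called gene. All 22 tested genes of the NRF2 pathway list, including its classical targets Nqo1 (86.3 ± 27.98 against 95.9 ± 18.2 CPM) and Hmox1 (32.4 ± 9.74 against 28.9 ± 13.4 CPM), were not called. The 10 tested oxidant source genes all had log2 fold changes below 0, with a median of -0.43, but without wild-type library 1 the median was -0.074 with 3 above 0, and without knockout library 4 as well it was 0.052 with 6 above 0. None was called in these 3 fits.

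**Figure D4:**
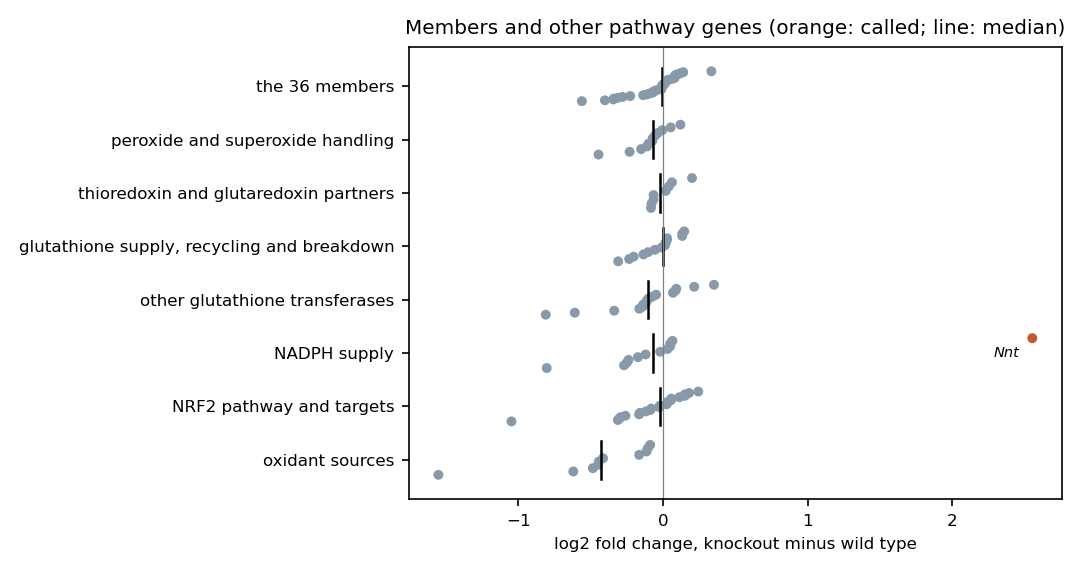
Log2 fold change, knockout minus wild type, of the 36 members and of the tested genes in 7 other pathway lists (points), with the median of each list as a vertical line and called genes in orange. Nnt at 2.55 is the only called gene, and the medians lie between -0.43 and 0.0027.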

How the data were processed

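Transcripts of 10 hearts were measured, 5 per group as labelled. The authors deposited expected counts per gene, which were whole numbers, so rounding changed nothing. STAR 2.5.2 made the alignments to GRCm39, per the labels' protocols, and the submitters' processing notes name RSEM 1.3.0, which divides reads that map to several genes. Neither annotation release nor strand setting is given in the sources used, so antisense and overlapping genes are uncertain. Of 78298 identifiers, 78168 matched the GENCODE annotation. Groups came from the genotype label, and title prefixes differ with genotype, so a cohort cannot be told apart from it.

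Groups were compared in edgeR 4.0.16 (R 4.3.3) by its quasi-likelihood F test after TMM scaling, with the default filter at a minimum count of 10, robust dispersions and Benjamini-Hochberg adjustment over all genes tested, called at 0.05. Standard errors are the log2 fold change over the square root of F. Intervals are 95%, from these and the fitted degrees of freedom. Alternatives were other scalings, 2 other filters, DESeq2 1.42.0, limma 3.58.1 voom with quality weights, each library left out, wild-type library 1 and knockout library 4 left out together, and copies summed (BLAST 2.17.0, 95% identity over 200 bases). On simulated data for these 16700 genes, with changed genes drawn at random from all of them, the share recovered was 26.4% at 1.5-fold, 62.7% at 2-fold and 83.8% at 4-fold.

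The members and lists were chosen with earlier results of these data known. Values in every library were given for members on chromosome 17 and the member of smallest p in each role group, beside any called or separate. Gpx3, and single-library values of Cat, Gclm, Gstm1 and Txnip, were added after their values were seen. Other pathway genes were named if called, separate or of smallest p in their list with all libraries. Prdx3, Gpx4, Txnrd2, Gsr, Nqo1, Hmox1, Osgin1, Txnrd3, Abcc1 and Me3 were added after their values were seen. Library totals were 21403189 to 40627138, which leaves members of low level the widest counting error.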

Additional observations from a re-analysis of the deposited data

Results flagged for a closer look

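In 86 groups of 5 libraries, over the 36 members and the 7 other genes named by the rule, 10 had 1 library set apart from its group by Dixon's ratio above 0.71. Chance flags about 1 in 20 groups, and the genes share the same libraries. Wild-type library 1 gave 8 of the 10 and knockout library 4 the other 2. Wild-type library 1 was high for Sod3 (19.9 CPM, others 7.70 to 9.10), Glrx (42.8 CPM, others 10.1 to 12.1), Gclc (32.3 CPM, others 16.8 to 18.6) and Pgd (41.8 CPM, others 20.3 to 22.9). It was also high for Gsta3 (40.5 CPM, others 20.4 to 25.9), Cbr3 (6.502 CPM, others 1.03 to 1.38) and Por (75.4 CPM, others 37.3 to 39.5), and low for Msrb3 (81.7 CPM, others 102 to 109.5). Knockout library 4 was high for Glrx (15.5 CPM, others 9.94 to 11.3) and low for Gstm1 (198 CPM, others 309 to 342).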

How the results depend on the processing

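The count of called members was 0 of 36 under each of the alternative scalings, filters, tools and left-out libraries that were run, and the lowest adjusted p of a member over them was 0.438, for Gclc in edgeR without wild-type library 1 and knockout library 4. Unadjusted p under 0.05 by edgeR was reached by 1 member without wild-type library 5, by 2 without knockout library 4 and by 4 without both of the libraries named first. Of all genes tested, 6.86% had such a p with all libraries and 7.8% without both. At such shares a few of 36 genes would reach it, so these counts are not read as differences of the members. The call of Nnt, the 1 of 94 other pathway genes, was kept in each. Over all genes the count of calls was 59 of 16700 tested, 118 of 16434 with DESeq2 and 91 of 16700 with limma voom and quality weights. It was 47 to 75 when 1 library was left out. Scaling by library totals alone moved the median log2 fold change of all genes from -0.014 to -0.116, and the members moved with it, to a median of -0.107 with 5 of 36 above 0, so signs of the small member differences depend on the scaling. The largest shift of a member was that of Glrx, 0.662 on the log2 scale without wild-type library 1. No paired analysis was possible because the labels give the groups no shared replicate numbers. With 5 libraries a group, 26.4% of 1.5-fold changes were recovered in simulated data for this comparison. The changed genes were drawn at random from all genes tested and no simulated library was set apart. The share is thus not the recovery for the 36 members.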
